A study of Homo sapiens with 2 samples.

Results

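CDKN1A and a set of genes that the transcription factor p53 is known to activate were compared in Hep3B cells with SOX4 knocked out and in their parental line. The 9 genes named for the comparison were CDKN1A, MDM2, GDF15, BBC3, SESN1, ZMAT3, RRM2B, TP53I3 and FDXR. Each was represented by the transcript cluster that carries its symbol alone, and 8 of the 9 had such a cluster, among 33616 named genes in all. BBC3 shares its only cluster with a microRNA gene and was not analysed here. The genes were chosen by the difference between these same arrays, at least in part, so their values describe that difference and support nothing beyond it.

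Hep3B is an established line from a human hepatocellular carcinoma, and it is widely known to lack functional p53 protein. The knockout array held total RNA of Hep3B cells in which SOX4 had been edited with CRISPR/Cas9, and these cells were kept in puromycin. The parental array held total RNA of unedited Hep3B cells grown in the same medium without puromycin. The labels do not say whether the knockout cells were 1 clone or a pool. Each genotype has 1 array and so no replicates, which is why values are given without any test or error, and genotype, puromycin, selection and the array itself cannot be told apart. SOX4, the edited gene, stood at 12.44 in knockout cells and at 13.14 in parental cells on the deposited log2 scale, a difference of -0.70 or 1.62-fold. A transcript can persist after an edit, so this value does not check the loss of SOX4 protein. The liver identity of both arrays was checked with 10 hepatocyte genes, of which 9 were measured and all 9 lay above the level filter described next. ALB, which codes for albumin, stood at 18.84 in knockout cells and at 18.87 in parental cells. The markers were not level between the arrays, with 7 of 9 lower in knockout cells and a median difference of -0.30. Over all genes above that filter the median was 0.04. Of the 9 markers, 0 were higher and 2 lower by 2-fold or more. The shares over all genes above the filter were 6.50% and 3.64%. The fetal serum protein gene AFP differed most, at 9.73 in knockout cells and 15.50 in parental cells, and APOA1, an apolipoprotein gene, was also past 2-fold at 11.27 in knockout cells and 12.44 in parental cells. TF, which codes for transferrin, was 0.53 higher and SERPINA1, which codes for alpha-1 antitrypsin, 0.35 higher.

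The p53 protein binds DNA as a tetramer and switches on genes that stop the cell cycle, repair DNA, limit oxidative damage or start cell death. CDKN1A codes for p21, an inhibitor of cyclin-dependent kinases that halts division, and MDM2 codes for the ubiquitin ligase that marks p53 itself for destruction. CDKN1A is also known to be transcribed without p53, through factors that bind GC-rich sites, SMAD proteins, STAT proteins and others.

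CDKN1A was the only measured member that differed by 2-fold or more between the arrays. It stood at 10.22 in knockout cells and at 4.70 in parental cells, a difference of 5.52 on the log2 scale or 45.9-fold. The parental value lay just under the level filter of 4.78, the median over all genes of the higher of their 2 values, and the knockout value lay far above it. CDKN1A thus passed the filter only through the knockout array, and its fold rests on a parental signal not shown to exceed background. The RNA came from whole cultures, so a difference in every cell and a difference in a share of the cells cannot be told apart.

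The other 7 measured members differed by -0.19 to 0.85 on the log2 scale, 5 of them higher and 2 lower in knockout cells. Counting those above the level filter, 1 of 7 members was higher by 2-fold or more in knockout cells and 0 were lower by as much. The same shares over all 16808 genes above the filter were 6.50% higher and 3.64% lower. The members and the genes of all lists below code for proteins. Over the 11231 protein-coding genes above the filter the shares were 8.26% higher and 4.27% lower. At 1.5-fold, 3 of the 7 (CDKN1A, ZMAT3 and GDF15) were higher, against 15.5% of all genes above the filter. The median difference of the 8 measured members was 0.32, and it was 0.22 over the 7 other than CDKN1A, against a median of 0.00 over all named genes and 0.04 over those above the filter. Only 9 of the 33616 named genes were higher in knockout cells by more than CDKN1A. CDKN1A was chosen at least in part by this difference, so its size is no yardstick for the other members. The plot of values by gene shows each pair.

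**Figure D1:**
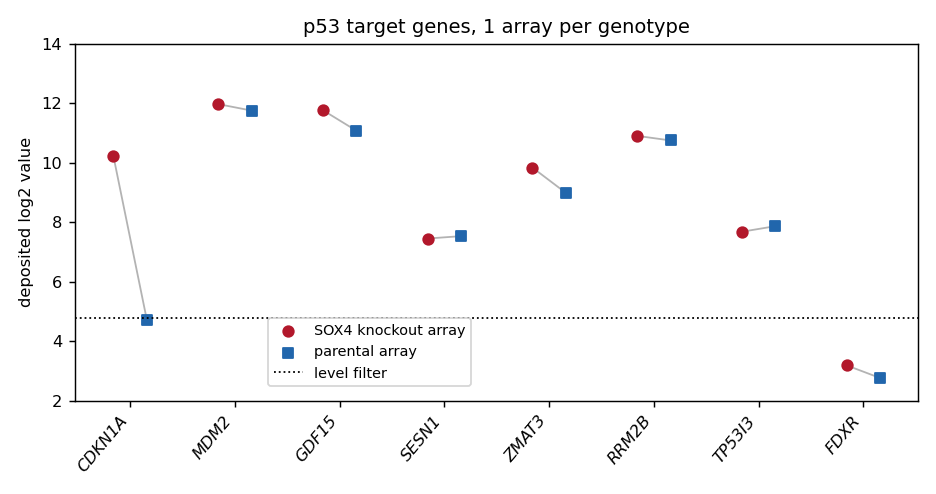
Deposited log2 value (vertical axis) of the 8 measured members in SOX4 knockout cells (red circles) and the parental array (blue squares), 1 array each; the dotted line is the level filter of 4.78. CDKN1A stands at 10.22 in knockout cells and 4.70 in parental cells, while the pairs of the other 7 genes lie within 0.85 of each other.

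Among the genes of arrest and feedback, MDM2 had nearly equal values. It stood at 11.98 in knockout cells and at 11.76 in parental cells, a difference of 0.22. Of 1184 genes of like level, whose mean lay within 0.5 log2 of its own, 417 had a larger difference and 767 a smaller one, so MDM2 sat well inside the spread of its neighbours in level. MDM4, its relative that also restrains p53, stood at 13.24 in knockout cells and 12.91 in parental cells.

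ZMAT3 codes for a zinc finger protein that binds RNA and acts in splicing and messenger stability. It had the largest difference after CDKN1A, with 9.84 in knockout cells and 8.99 in parental cells, 0.85 higher or 1.81-fold. Of 1440 genes of like level, 186 had a larger difference, and the SD among those genes was 0.80. GDF15, a secreted cytokine of the TGF-beta family made under many kinds of stress, stood at 11.77 in knockout cells and 11.08 in parental cells, 0.69 higher or 1.61-fold. Of 1262 genes of like level, 144 had a larger difference, with an SD of 0.64. Both differences were thus close to 1 SD of genes of their level.

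The members with roles in DNA precursors and redox balance lay near 0. RRM2B, the ribonucleotide reductase subunit that supplies nucleotides for repair, stood at 10.91 in knockout cells and 10.75 in parental cells. SESN1, a sestrin that restrains mTORC1 and limits peroxides, stood at 7.45 in knockout cells and 7.54 in parental cells. TP53I3, a quinone reductase-like enzyme, was the lowest member by difference at -0.19, with 7.68 in knockout cells and 7.87 in parental cells. For these 3 genes the distance between the arrays was below 0.2 on the log2 scale, and genes of like level with larger and with smaller differences numbered 603 and 793 for RRM2B, 1019 and 607 for SESN1, and 1086 and 462 for TP53I3.

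FDXR codes for ferredoxin reductase, which passes electrons to mitochondrial cytochromes P450. It stood at 3.19 in knockout cells and at 2.76 in parental cells, both under the level filter, so its difference of 0.43 compares dim signals. Of 8129 genes of like level, 311 had a larger difference, and the SD among those genes was 0.26, which places FDXR farther out among genes of its level than ZMAT3 or GDF15 were among theirs. Each of the 8 measured members had exactly 1 cluster, so no second probe set could be set beside any value. In the plot of difference against level, CDKN1A lies far above the 2-fold line and the other members lie inside it.

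**Figure D2:**
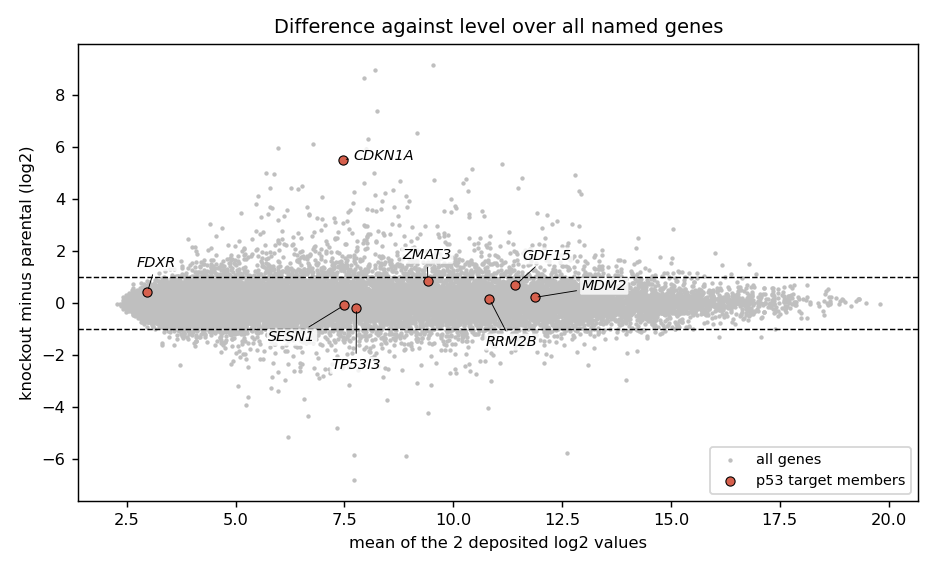
Knockout minus parental difference in log2 (vertical axis) against the mean of the 2 deposited log2 values (horizontal axis) for 33616 named genes (grey) and the 8 measured members (labelled); dashed lines mark 2-fold. CDKN1A lies at 5.52 and the other members between -0.19 and 0.85.

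The promoter windows of the members are given as a description of their sequence. Whether the sequence bears on any difference between the arrays was not tested. RefSeq sequence on GRCh38.p14, from 250 bases before to 50 bases after an annotated start, was matched for 7 of the 8 measured members, with 14 windows in all and several alternative starts for some genes. RRM2B was not matched. Shown are CDKN1A at chr6:36678464-36678763 on the plus strand, ZMAT3 at chr3:179071760-179072059 on the minus strand, GDF15 at chr19:18385908-18386207 on the plus strand and TP53I3 at chr2:24084785-24085084 on the minus strand, which are the 3 members with the highest differences above the level filter and the one with the lowest. ZMAT3 has another window that is not shown. Each is written 5′ to 3′ along the gene, and capitals mark GC boxes (GGGCGG on either strand) and the TATA box TATAAA.
CDKN1A: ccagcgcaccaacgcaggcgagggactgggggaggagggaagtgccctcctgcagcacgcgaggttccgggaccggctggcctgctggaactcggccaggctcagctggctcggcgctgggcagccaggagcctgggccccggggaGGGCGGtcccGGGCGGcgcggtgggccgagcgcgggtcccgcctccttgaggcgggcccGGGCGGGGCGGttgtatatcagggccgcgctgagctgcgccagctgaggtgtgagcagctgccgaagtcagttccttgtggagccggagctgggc
ZMAT3: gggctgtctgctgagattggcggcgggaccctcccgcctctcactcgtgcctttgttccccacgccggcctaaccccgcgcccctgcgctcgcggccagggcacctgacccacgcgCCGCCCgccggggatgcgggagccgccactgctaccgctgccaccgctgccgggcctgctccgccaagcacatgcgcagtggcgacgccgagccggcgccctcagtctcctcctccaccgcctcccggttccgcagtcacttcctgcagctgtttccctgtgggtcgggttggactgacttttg
GDF15: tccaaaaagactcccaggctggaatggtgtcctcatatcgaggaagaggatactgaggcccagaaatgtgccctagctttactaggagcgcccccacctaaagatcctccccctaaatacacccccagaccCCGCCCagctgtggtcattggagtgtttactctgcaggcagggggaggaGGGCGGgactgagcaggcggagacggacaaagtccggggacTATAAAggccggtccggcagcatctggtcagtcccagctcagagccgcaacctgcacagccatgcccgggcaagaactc
TP53I3: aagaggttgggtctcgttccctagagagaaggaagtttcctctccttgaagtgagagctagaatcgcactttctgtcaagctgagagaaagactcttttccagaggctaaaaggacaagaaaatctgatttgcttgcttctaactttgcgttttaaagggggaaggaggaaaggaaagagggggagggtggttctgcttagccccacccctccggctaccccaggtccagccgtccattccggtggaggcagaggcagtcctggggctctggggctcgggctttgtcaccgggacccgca

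The CDKN1A window held 4 GC boxes, the last 2 of which overlap, ahead of its start. The ZMAT3 window held 1, the GDF15 window 2 and the TP53I3 window 0. GC boxes are not particular to CDKN1A among the members, since 1 window of SESN1 held 8 and 1 of FDXR held 6. In all, 11 of the 14 windows had at least 1, against 15786 of 35116 RefSeq windows of the same length, and the 4 MDM2 windows overlap in pairs. The motif TATAAA, searched on both strands, was found in the GDF15 window alone among the 14, against 11.5% of all windows. SOX proteins bind short sites such as ACAAAG and ACAATG. Searched on both strands, ACAAAG was found in 16.1% of all windows and ACAATG in 10.8%. The CDKN1A window held neither, while the windows shown for ZMAT3, GDF15 and TP53I3 each held 1 ACAAAG and no ACAATG. The consensus p53 half-site was matched in 2 of the 14 windows, 1 of SESN1 and 1 of FDXR, against 6.63% of all windows. A letter match is a description of the sequence, and the sites at which p53 is known to bind CDKN1A lie outside the window.

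The genes around CDKN1A on chromosome 6 were mostly close to 0. Of the 10 protein-coding genes on each side in RefSeq order, 18 of 20 were measured and 10 lay above the level filter. Their median difference was -0.02. SRSF3, a splicing factor gene next to CDKN1A on one side, stood at 14.31 in knockout cells and 14.65 in parental cells. RAB44, next to it on the other side, stood at 3.96 in knockout cells and 4.23 in parental cells, both under the filter. PIM1, a kinase gene 8 genes away, was the only neighbour past 2-fold, at 8.08 in knockout cells and 6.52 in parental cells, 1.57 higher. The other 17 ran from -0.48 to 0.52. Among the 10 neighbours above the filter, 1 was 2-fold higher and 0 were 2-fold lower. The shares over all genes above the filter were 6.50% and 3.64%. PANDAR, a non-coding RNA gene beside CDKN1A that p53 is known to induce, was picked after its values were seen and stood at 2.98 in knockout cells and 3.20 in parental cells, under the filter in both.

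**Figure D3:**
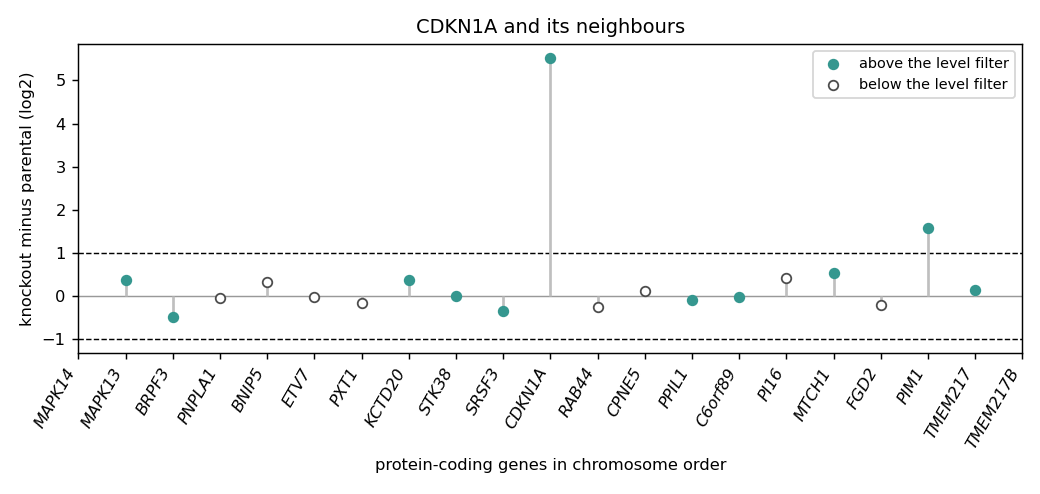
Knockout minus parental difference in log2 (vertical axis) for CDKN1A and the measured ones of the 10 protein-coding genes on each side (horizontal axis, chromosome order); open points lie under the level filter in both arrays, and genes with no point were not analysed. CDKN1A stands at 5.52, PIM1 at 1.57 and the other 17 neighbours between -0.48 and 0.52.

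The genes whose pair of array values lay nearest to that of CDKN1A, by Euclidean distance over the 2 arrays, were PPP2R2C, CNTN1, EMP3, TM4SF1 and ELMO1. Nearest was PPP2R2C, a regulatory subunit gene of protein phosphatase 2A, with 10.97 in knockout cells and 5.02 in parental cells, at a distance of 0.81. ELMO1, which acts in Rac activation, was the farthest of the 5 at 1.05, with 9.84 in knockout cells and 3.72 in parental cells. The brightness of a cluster depends on its probes, and 2 arrays give no pattern beyond 1 difference, so the likeness is one of deposited values only.

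Other genes known as p53 targets were taken from 4 lists by role, with 41 genes in all. Of these, 38 were measured and 30 lay above the level filter. Higher by 2-fold or more were 6 of the 30, where the share over all genes was 6.50%, and lower by as much was 1 of the 30, where it was 3.64%. Over the 38 measured genes 22 were higher and 15 lower by any amount, with a median difference of 0.12. Over the 30 above the filter the median was 0.39, where it was 0.04 over all genes above the filter with an SD of 0.70. The listed genes code for proteins, and protein-coding genes above the filter were 2-fold higher in 8.26% and 2-fold lower in 4.27%. CDKN1A sets no measure for these lists, since only 9 of all named genes were higher by more. The plot of gene groups shows each gene.

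Of 7 measured arrest genes 6 lay above the filter, and 2 of the 6 were 2-fold higher and none 2-fold lower. The shares over all genes were 6.50% and 3.64%. SFN, which codes for the 14-3-3 sigma protein that holds cyclin B and CDK1 in the cytoplasm, stood at 9.85 in knockout cells and 7.77 in parental cells, 2.08 higher. PLK2, a polo-like kinase gene, stood at 11.26 in knockout cells and 9.99 in parental cells. E2F7, a repressor of the cell cycle, was the lowest of the group at -0.55. Of 14 cell death genes 8 lay above the filter, and 1 of the 8 was 2-fold higher and 1 was 2-fold lower. The shares over all genes were again 6.50% and 3.64%, and the median over the 14 was 0.0008. PERP, a membrane protein gene of desmosomes, was 1.06 higher, with 13.54 in knockout cells and 12.47 in parental cells. TP53INP1, which acts in autophagy and cell death, was the only other p53 target past 2-fold in the lower direction, with 7.95 in knockout cells and 9.77 in parental cells, a difference of -1.82.

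All 5 DNA repair genes of the lists were above the filter and higher in knockout cells, with a median of 0.46. Over all genes above the filter the median was 0.04 and the SD of the difference 0.70. Of the 5, 1 was 2-fold higher and none lower, where the shares over all genes were 6.50% and 3.64%. DDB2, a damage sensor of nucleotide excision repair, stood at 6.95 in knockout cells and 5.88 in parental cells. XPC, which acts in the same pathway, was the lowest of the 5 with 0.39. Of 12 measured genes of metabolism and feedback, 11 lay above the filter. Of the 11, 2 were 2-fold higher and none 2-fold lower, beside the same shares over all genes. The median over the 12 was -0.02. CMBL, a hydrolase gene, stood at 9.26 in knockout cells and 7.87 in parental cells. FUCA1, a lysosomal fucosidase gene, was 1.02 higher, which became 0.96 with the level trend removed and also fell short of 2-fold after quantile normalization. ALDH4A1, an enzyme of proline breakdown, was lowest at -0.58.

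**Figure D4:**
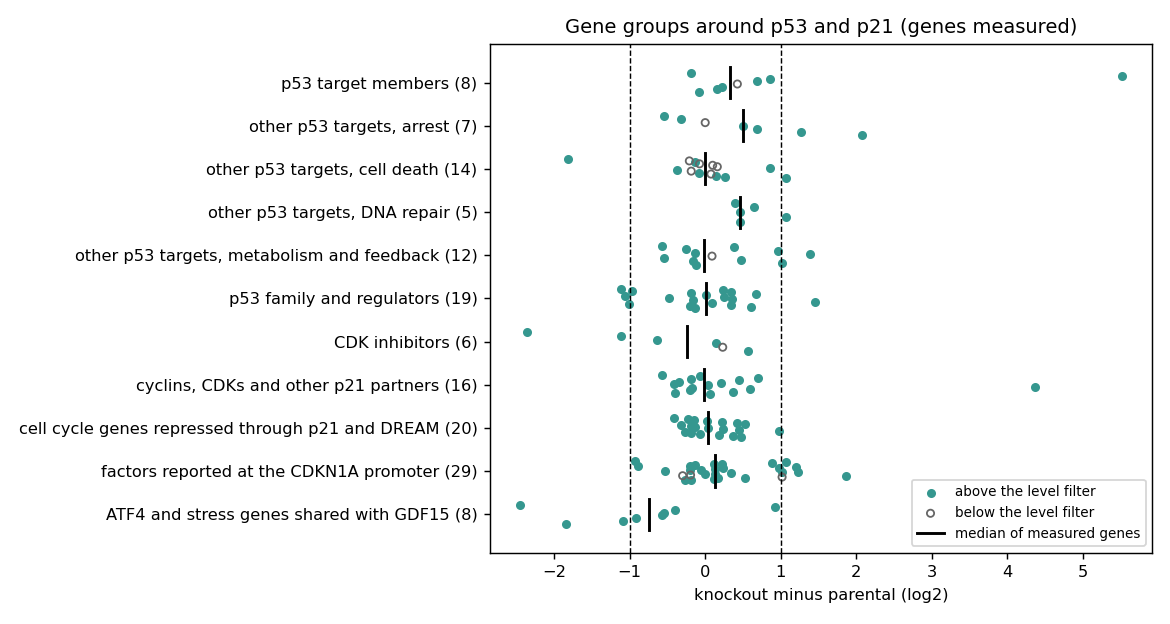
Knockout minus parental difference in log2 (horizontal axis) for each measured gene of 11 groups (vertical axis, number measured in brackets); filled points lie above the level filter in at least 1 array, black bars are medians and dashed lines mark 2-fold. CDKN1A at 5.52 and CCND2 at 4.37 are the genes farthest to the right, and the medians run from -0.74 for ATF4 and stress genes to 0.50 for arrest genes.

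The genes that act on p53 itself differed in both directions. Of 22 genes of the p53 family and its regulators, 19 were measured, all above the filter, with a median of 0.01; 1 of the 19 was 2-fold higher and 3 were 2-fold lower, where the shares over all genes were 6.50% and 3.64%. PPP1R13L, an inhibitor of p53 of the ASPP family, stood at 6.48 in knockout cells and 5.02 in parental cells, 1.46 higher. CDKN2A, which codes for the CDK inhibitor p16 and for ARF, the antagonist of MDM2, stood at 10.54 in knockout cells and 11.65 in parental cells, a difference of -1.11 that the probes of 1 cluster cannot divide between its products. HIPK2, a kinase of p53, stood at -1.07. CHEK2, a checkpoint kinase gene, stood at -1.01 and came to -0.97, short of 2-fold, when the arrays were centred on their medians. TP73, a p53 relative able to bind many of the same sites, stood at 6.10 in knockout cells and 5.50 in parental cells, 0.60 higher.

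Of 6 other CDK inhibitor genes measured, 3 were higher and 3 lower in knockout cells by any amount. Among the 5 above the filter none was 2-fold higher and 2 were 2-fold lower, where the shares over all genes were 6.50% and 3.64%. CDKN1C, which codes for p57, a close relative of p21 and the product of an imprinted gene, stood at 6.04 in knockout cells and 8.40 in parental cells, a difference of -2.36. CDKN2A was the other. CDKN1B, which codes for p27, stood at 9.46 in knockout cells and 10.10 in parental cells. CDKN3, a phosphatase gene listed with the inhibitors, was the highest at 0.56. Within the family of p21, p27 and p57, the gene of p21 was higher and that of p57 lower in knockout cells by 2-fold or more. The difference of -0.63 for CDKN1B was short of 2-fold.

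Of 16 cyclins, CDKs and other partners of p21, all above the filter, 1 was 2-fold higher and none was 2-fold lower. The shares over all genes were 6.50% and 3.64%. CCND2, which codes for cyclin D2, stood at 10.80 in knockout cells and 6.43 in parental cells, 4.37 higher or 20.7-fold. CCND1 stood at 11.77 in knockout cells and 11.08 in parental cells. CCNE2 was the lowest at -0.57. PCNA, the replication clamp that p21 binds, stood at 14.14 in knockout cells and 14.49 in parental cells.

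**Figure D5:**
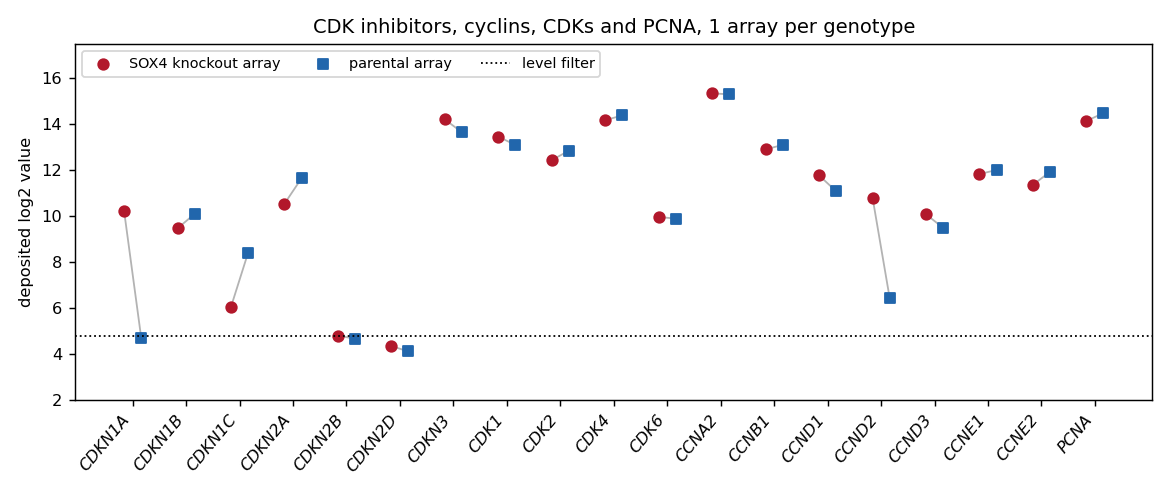
Deposited log2 value (vertical axis) of CDKN1A, 6 other CDK inhibitor genes, 4 CDKs, 7 cyclins and PCNA in SOX4 knockout cells (red circles) and the parental array (blue squares), 1 array each, with the level filter dotted. CDKN1A and CCND2 are higher in knockout cells by 5.52 and 4.37, while CDKN1C and CDKN2A differ by -2.36 and -1.11.

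Genes that p21 is known to repress through the DREAM complex, a repressor assembled on cell cycle promoters, stayed within 2-fold. Of 20 measured, all above the filter, none was 2-fold higher and none 2-fold lower. The shares over all genes were 6.50% and 3.64%, and the median difference of the 20 was 0.04. CENPA, the centromere histone gene, was the highest at 0.97, with 7.81 in knockout cells and 6.84 in parental cells. CCNB2, which codes for cyclin B2, was the lowest at -0.41.

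Transcription factors reported at the CDKN1A promoter were listed to show which of them differed alongside it. Of 32 listed, 29 were measured and 26 lay above the filter, with 5 of the 26 higher by 2-fold or more, where the share over all genes was 6.50%, and none lower by as much. The median over the 29 was 0.12. KLF4, under the filter in both arrays and so not counted, stood at 4.07 in knockout cells and 3.05 in parental cells, 1.02 higher. The other factors under the filter, FOXO4 and RUNX3, stood at -0.30 and -0.19. KLF5, a zinc finger factor that binds GC-rich sites, stood at 11.75 in knockout cells and 9.88 in parental cells, 1.86 higher. RUNX1 stood at 6.79 in knockout cells and 5.57 in parental cells. STAT3, the factor of IL-6 signalling, stood at 12.17 in knockout cells and 10.97 in parental cells. EGR1, an immediate early factor, was 1.07 higher. SMAD3, the TGF-beta effector, was 1.01 higher and came to 0.95 after quantile normalization and 0.97 with the level trend removed, both short of 2-fold. TBX2, a repressor of CDKN1A, was the lowest at -0.93, with 7.70 in knockout cells and 8.63 in parental cells. Whether any of these factors bears on CDKN1A was not tested.

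GDF15 is also a known target of ATF4, the factor of the amino acid and integrated stress response. GDF15 was 0.69 higher, short of 2-fold, while most listed genes of that response were lower. Whether ATF4 bears on GDF15 here was not tested. Of 8 such genes, 7 were lower and 1 higher in knockout cells, with a median of -0.74. Lower by 2-fold or more were 3 of the 8, where the share over all genes was 3.64%. CHAC1, which degrades glutathione, stood at 6.38 in knockout cells and 8.83 in parental cells. ASNS, the asparagine synthetase gene, stood at 13.29 in knockout cells and 15.13 in parental cells. ATF3, a factor known to act with p53 as well as ATF4, stood at 6.52 in knockout cells and 7.61 in parental cells. TRIB3 was the only gene of the 8 that was higher, by 0.92. SESN2, the relative of SESN1 that answers to both p53 and ATF4, stood at 6.34 in knockout cells and 6.89 in parental cells.

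Among the relatives and partners of the members, 25 were measured and 19 lay above the filter. Of the 19, 1 was 2-fold higher and 1 was 2-fold lower, where the shares over all genes were 6.50% and 3.64%. RRM2, the S-phase partner that RRM2B replaces, stood at 14.01 in knockout cells and 13.48 in parental cells. FDX1, a ferredoxin that receives electrons from FDXR, stood at 9.13 in knockout cells and 8.69 in parental cells. Among the BCL2 family, BCL2L1, which protects from cell death, was 1.12 higher with 14.77 in knockout cells and 13.65 in parental cells. BCL2L11, which promotes it, stood at -1.28 with 10.07 in knockout cells and 11.36 in parental cells.

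Markers of other cell types were read beside these values. Of 7 endothelial markers 1 lay above the filter and none was 2-fold apart, with KDR highest at 0.30 and EMCN lowest at -0.54. Of 7 fibroblast markers 4 lay above the filter and 1 was 2-fold higher, LUM at 12.69 in knockout cells and 7.90 in parental cells, while the collagen gene COL1A1 was lowest at -0.45. Of 7 leukocyte markers 4 lay above the filter. LYZ was 2.25 higher, CD68 1.09 higher and CD79A at -1.03, whereas PTPRC, which defines leukocytes, stood at 4.72 in knockout cells and 4.76 in parental cells, under the filter in both. Over all genes above the filter 6.50% were 2-fold higher and 3.64% were 2-fold lower. The part of LUM, LYZ and CD68 in any result was not tested.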

How the data were processed

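Total RNA of SOX4 knockout and parental Hep3B cells was measured on 1 biotin-labelled Affymetrix array each. The authors deposited log2 values. The submitters' processing notes name RMA and Transcriptome Analysis Console without versions. RMA subtracts background, puts arrays on a common distribution and combines the probes of each transcript cluster into 1 value. The base of the log is the one RMA writes and is not stated by a label. Values reach 19.80 (knockout) and 19.82 (parental), above the 16 bits of a scanner, so folds hold on the deposited scale only. The array design is not settled here, because the identifiers are not those usual for the array that the labels name. No detection calls or scanner files were used.

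The platform annotation gave 1 symbol to 36176 of 135750 clusters, several to 1119 and none to 98455. Symbols were updated through Entrez identifiers to RefSeq on GRCh38.p14, which served for names and gene order. Where several clusters named a gene, the one with the highest mean stood for it. The level filter kept the 16808 genes whose higher value exceeded 4.78, and differences of 1 or more on the log2 scale, which is 2-fold, were counted with no test. The number of arrays limits the precision. The named genes were SOX4, the members, TP73 and MDM4, up to 6 genes past 2-fold and the highest and lowest of each list, the 5 genes nearest to CDKN1A, and its adjacent or 2-fold different neighbours, while RRM2, FDX1, SESN2, CDKN1B, CCND1, PCNA, ALB, SERPINA1, PTPRC, PANDAR, CHEK1 and TFAP2A were added for their role after the values were seen. KLF4, FOXO4 and RUNX3 were also added after the values were seen, as the promoter factors under the level filter. The members and lists were chosen with earlier results of these data known. Alternatives were quantile normalization, median centring, removal of the level trend with lowess (statsmodels 0.14.6), averaging of clusters, other filters and other folds. Calculations used Python 3.11.15 and pandas 2.3.3. The counting code was tested on simulated pairs of arrays with the SD of genes under the filter, 0.30, where genes above it had 0.70. That checks the code and not the rate of false calls in these data.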

Additional observations from a re-analysis of the deposited data

How the results depend on the processing

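CDKN1A differed by 5.46 to 5.55 on the log2 scale over quantile normalization, centring on the array medians and removal of the level trend, and each of the other 7 measured members kept its sign under these 3. Averaging of clusters could not change a member, since each has 1 cluster. With a threshold of 1.5-fold, 3 members were higher (CDKN1A, ZMAT3 and GDF15), where 15.5% of all genes above the filter were. The counts over all genes followed the thresholds by construction, with 2605 higher and 1882 lower at 1.5-fold, 226 and 80 at 4-fold, and 643 and 332 with the level filter at the 75th percentile. The median of CDK inhibitors came to -0.63 over the members above the filter, where fewer genes entered. Other medians and counts moved by less than 0.30, the SD of the difference among genes under the filter, or by less than 1.5 times. Of 31 genes above the level filter and past 2-fold that the text draws from lists or neighbours, 3 (CHEK2, FUCA1 and SMAD3) fell short of 2-fold in at least 1 scaling. CHEK1 passed it after quantile normalization at -1.03 and with the level trend removed at -1.01, and CENPA and TFAP2A passed it with centred arrays at 1.00 and 1.01. No paired analysis was possible because each genotype has 1 array. With 1 array per genotype no spread between cultures is known, and without detection calls the parental level of CDKN1A has no lower bound.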
